A study of Mus musculus with 9 samples.

Results

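The ErbB receptors and their ligands were followed across 4 groups of mouse glioma and brain samples. The 10 members were taken by gene name: the 4 receptors Egfr, Erbb2, Erbb3 and Erbb4 and the 6 ligands Egf, Tgfa, Hbegf, Btc, Nrg1 and Nrg2. They are 10 of the 34733 genes on the array and hold 14 of its 55666 probes. Gene expression was measured on 9 single-colour Agilent arrays, 1 per sample. EZH2-KO glioma tissue, whole brain tumour from MADM mice with EZH2 knocked out, was measured on 3 arrays. MADM glioma cells, taken from brain tumours of the same kind of mouse with no knockout named in the labels, were measured on 2 arrays. Astrocytes and neural stem cells came from wild-type C57BL/6J brain, with 2 arrays each. MADM stands for mosaic analysis with double markers, a mouse genetic method that makes single marked mutant cells in an otherwise normal animal. The labels do not say which genes start the tumours, which part of EZH2 was removed, the age of the mice, or whether the arrays of a group came from separate animals or cultures. The p-values therefore cover only the spread among these arrays. Sex-linked transcripts, given below, differed within the tissue and astrocyte groups, and for arrays with no such difference the spread may be technical.

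ErbB receptors are tyrosine kinases of the cell surface that pair up when a ligand binds. Egfr binds Egf, Tgfa, Hbegf and Btc, Erbb3 and Erbb4 bind the neuregulins Nrg1 and Nrg2, and Erbb4 also binds Hbegf and Btc. Erbb2 has no known soluble ligand and works as the preferred partner of the others, while Erbb3 has a weak kinase and signals through its partners. In brain, Egfr is known from dividing progenitors and from human glioblastoma, where it is often amplified, Erbb3 from the oligodendrocyte lineage, and Erbb4 from inhibitory interneurons.

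Which transcript a probe reads bears on the results below, and 4 probes are shown for that reason, with positions in mouse build mm9 as the array files give them. Egfr was read by 3 probes. A probe that the files assign to transcript variant 2, at chr11:16787172-16787231 on the plus strand, ends in a stop triplet. Another, at chr11:16783556-16783615, lies upstream of it and has no capitals. The third Egfr probe, at chr11:16813815-16813874, lies further downstream and is assigned to variant 1. The single probes of Erbb3, at chr10:128006424-128006483, and Nrg1, at chr8:32928500-32928559, both on the minus strand, also end in a stop triplet. Capitals mark a stop triplet at the last base whose reading frame has no other stop across the probe. All are written 5′ to 3′.
Egfr variant 2 end: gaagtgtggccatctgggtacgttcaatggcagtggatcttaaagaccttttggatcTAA
Egfr upstream: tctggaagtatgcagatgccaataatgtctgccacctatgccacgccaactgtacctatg
Erbb3: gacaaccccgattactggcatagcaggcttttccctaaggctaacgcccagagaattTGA
Nrg1: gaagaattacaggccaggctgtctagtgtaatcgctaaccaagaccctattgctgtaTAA

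Signals are given as log2 of the processed intensity relative to the 75th percentile of each array, so that a value of 0 is the level of that percentile. They show how 1 probe differs between samples, and probes of different genes are not compared with each other. On each array 60.1% to 65.7% of spots were well above background and no spot was saturated. The number of arrays limits the precision. The single Ezh2 probe, at mm9 chr6:47480307-47480366, read 1.91, 1.62 and 1.48 in tissue, 3.03 and 3.24 in glioma cells, 0.19 and -0.58 in astrocytes, and 2.14 and 3.38 in neural stem cells. Since the deleted part is not given, this probe does not check the knockout. Arrays of a group differed in sex-linked transcripts: Ddx3y, on the Y chromosome, read -7.27 on tissue array 1 against 0.29 and -1.57 on the others, and -5.76 and 1.35 on the astrocyte arrays. Tissue array 1 thus came from another animal than tissue arrays 2 and 3, and astrocyte arrays 1 and 2 did not hold the same material. Groups differed as well: Ddx3y read -7.30 and -7.09 in glioma cells and 0.24 and 0.27 in neural stem cells. The part of sex in the results was not tested. The tissue arrays were on another slide, in another scan session and read with another software version than the 6 cell arrays, so tissue and these technical steps cannot be told apart. The EZH2 knockout is named for the tissue arrays alone, and these alone hold whole tissue. Knockout and kind of sample therefore cannot be told apart either, also in tissue against glioma cells.

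On all 5 glioma arrays the signals of Egfr and Erbb2 lay below those of every array of normal cells, and for each of these receptors 3 of the 4 differences between a glioma group and a normal cell type were called. Erbb3 was well above background on the glioma arrays alone. Hbegf and Nrg1 had their highest signals in astrocytes, where Tgfa had its lowest. A gene was called at a limma adjusted p under 0.05 over all genes tested and a change of at least 2-fold. Of the 10 members 9 could be tested, while Btc did not rise well above background on an array of any group. In all, 15 of 54 tests of a member were called. In the 6 comparisons, as in the 4 of a glioma group with a normal cell type, 0.977% to 23.0% of all genes were called. The comparisons share arrays, so the pooled count is not a result about the family. Erbb3 entered the tests only through the glioma groups, where it is high, so its 2 calls among the 15 add no support to the counts.

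In MADM glioma cells against astrocytes 4 of 9 members were called, with Erbb3 higher and Egfr, Erbb2 and Hbegf lower, where 18.8% of all genes were called, 9.0% higher and 9.84% lower. The arrays did not overlap for 7 members, where this held for 69.2% of all genes. The median change of the members was -0.36 on the log2 scale against 0.15 for all genes. In EZH2-KO glioma tissue against astrocytes 7 of 9 were called, 3 higher (Erbb3, Erbb4 and Tgfa) and 4 lower (Egfr, Erbb2, Hbegf and Nrg1), beside 23.0% of all genes, 10.6% higher and 12.4% lower. There 8 members did not overlap, beside 58.0% of all genes, and the members' median change was -0.79 against -0.06.

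In neural stem cells against astrocytes only Hbegf was called, 1 of 9 members, and it was lower, beside 14.6% of all genes called and 7.85% called lower. The arrays did not overlap for 7 members, beside 66.3% of all genes, and the median change was -0.34 against 0.21. In MADM glioma cells against neural stem cells none of the 9 was called, beside 0.977% of all genes. At an unadjusted limma p under 0.05 there were 4 of 9, beside 3615 of 24868 genes. For 6 members the arrays did not overlap, beside 46.0% of all genes. The median change there was 0.49 against -0.05.

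In EZH2-KO glioma tissue against neural stem cells 3 of 9 were called, Hbegf higher and Egfr and Erbb2 lower, beside 18.0% of all genes, 8.08% higher and 9.89% lower. The arrays did not overlap for 6 members, beside 52.3% of all genes, and the median change was 0.70 against -0.22. In EZH2-KO glioma tissue against MADM glioma cells none was called, beside 16.9% of all genes. At an unadjusted limma p under 0.05 there was 1 of 9, Egfr, beside 8897 of 25398 genes. For 2 members the arrays did not overlap, beside 55.2% of all genes, and the median change was 0.27 against -0.16. The comparisons share arrays, so their values are given side by side and are not independent of each other.

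**Figure D1:**
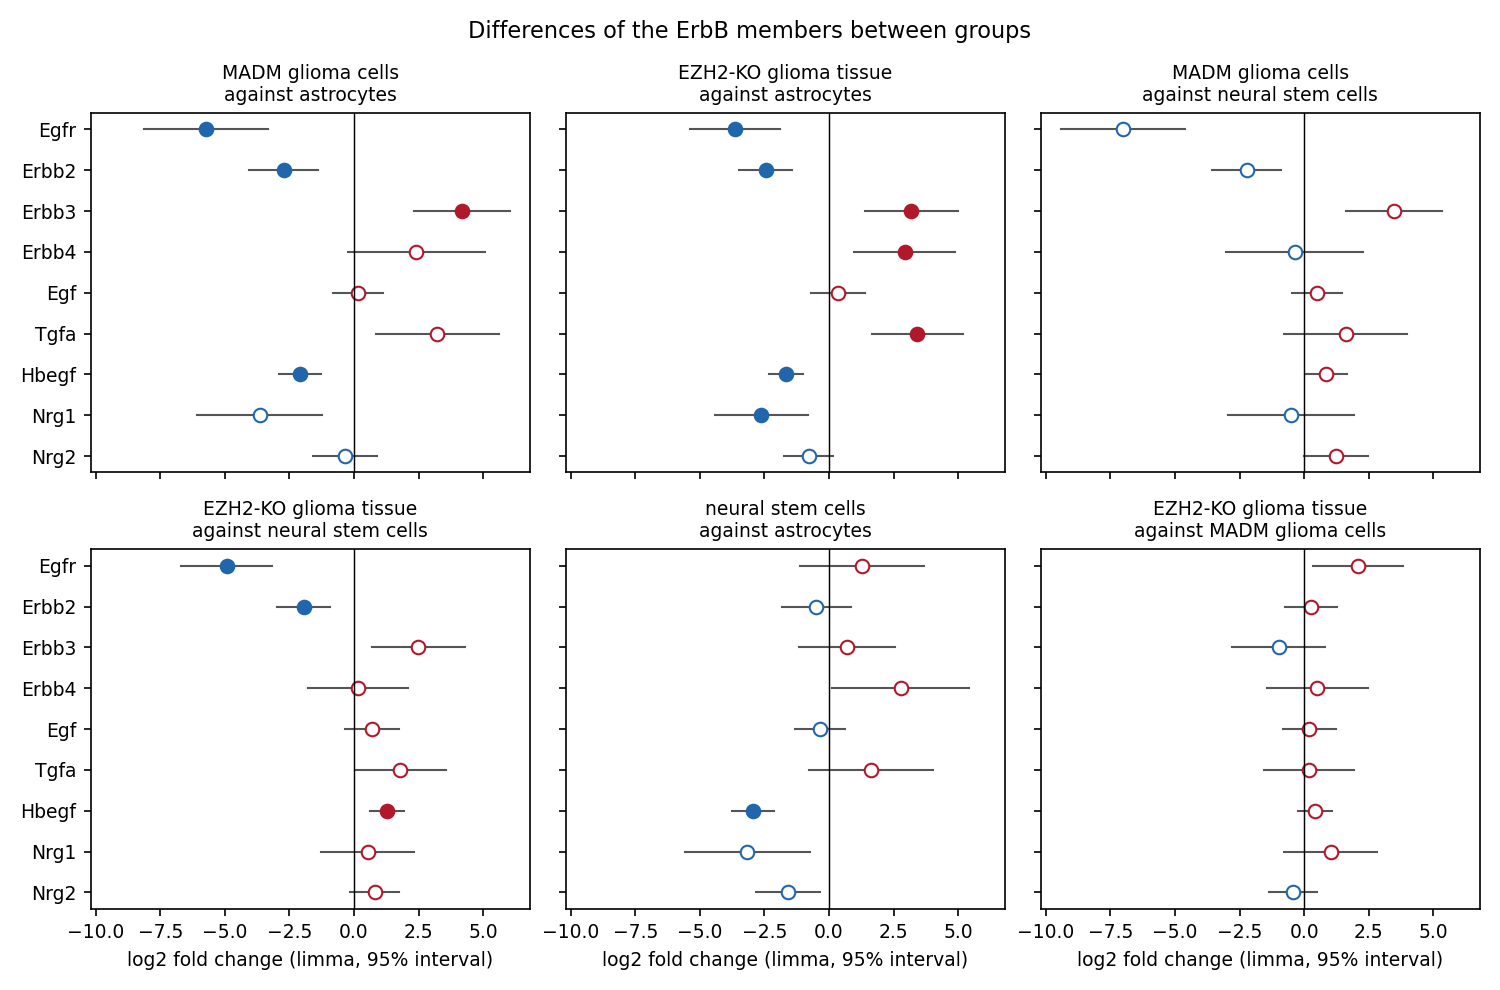
Log2 fold change of each tested member (x axis, limma estimate with its 95% interval) in the 6 comparisons, first group minus second. Filled points were called and open points were not. Egfr and Erbb2 lie left of 0 in all 4 comparisons of a glioma group with a normal cell type, and none of the members is filled in tissue against glioma cells.

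Egfr, the receptor of Egf and Tgfa, was the member with the widest range over groups. Its variant 1 probe, which has 10 spots on each array, read -0.88, -0.51 and -1.22 in tissue, -4.21 and -1.71 in glioma cells, 2.24 and 3.31 in astrocytes, and 3.44 and 4.68 in neural stem cells. The group means ± SD were -0.87 ± 0.35 (n = 3), -2.96 ± 1.77 (n = 2), 2.77 ± 0.76 (n = 2) and 4.06 ± 0.88 (n = 2). The groups stood in the order neural stem cells, astrocytes, tissue, glioma cells, and no neighbours in that order overlapped on this probe. The 2 glioma cell arrays lay further apart than the arrays of any other group.

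Against astrocytes Egfr was 53.1-fold lower in glioma cells (-5.73 on the log2 scale, SE 0.95, adjusted p = 0.018) and 12.5-fold lower in tissue (-3.64, SE 0.75, adjusted p = 0.014). The glioma cell call was lost without either astrocyte array and the tissue call without astrocyte array 2, with adjusted p up to 0.082 and 0.083, while the changes stayed between -6.98 and -4.48 and between -4.18 and -3.11. Against neural stem cells Egfr was 30.4-fold lower in tissue (-4.93, SE 0.75, adjusted p = 0.0058), a call that was lost at an adjusted p of 0.050 without neural stem cell array 2. In glioma cells it was 129.5-fold below neural stem cells (-7.02, SE 0.95), the widest difference of any member, and missed the call at an adjusted p of 0.053. It was -8.26 without glioma cell array 2 and then called (adjusted p = 0.037), -5.77 without glioma cell array 1 (adjusted p = 0.072), and not called without any other cell array, with adjusted p up to 0.154.

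All 3 Egfr probes gave the same order of group means. On the upstream probe the values were -2.71, -2.45 and -3.15 in tissue, -4.27 and -3.92 in glioma cells, -0.74 and 0.67 in astrocytes, and 0.84 and 1.87 in neural stem cells. On the variant 2 end they were -3.52, -3.35 and -4.62 in tissue, -7.37 and -5.02 in glioma cells, -0.90 and 0.46 in astrocytes, and 0.21 and 1.04 in neural stem cells. The glioma cells were not well above background on either array with the variant 2 probe, and both normal cell types were on every array with each probe. The glioma cell arrays were close together only on the upstream probe.

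When every probe was fitted on its own, each of the 3 Egfr probes was called lower in glioma cells than in neural stem cells, with adjusted p of 0.049 for variant 1, 0.048 for variant 2 and 0.035 for the upstream probe. Here 0.947% of all probes were called. The change on the upstream probe was 43.7-fold, and that on the variant 2 probe at least 54.8-fold, a bound set by the lowest signal well above background. The variant 2 probe entered the fit only through groups where it is brighter than in glioma cells, so its call adds no support. In tissue against glioma cells the log2 difference was 2.09 (95% interval 0.34 to 3.84), every tissue array was above both glioma cell arrays on each probe, and the adjusted p was 0.094. The difference rested on which glioma cell array was used: it was 3.34 and called without array 2 (adjusted p = 0.023), and 0.84 and not called without array 1 (adjusted p = 0.459).

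**Figure D2:**
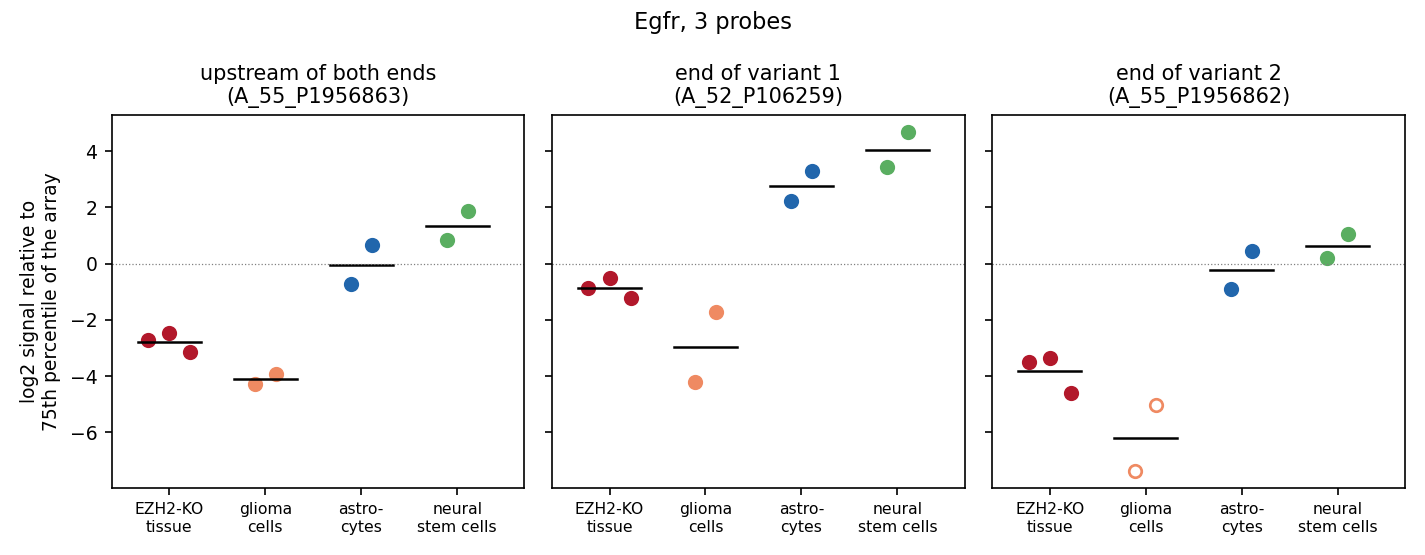
Log2 signal relative to the 75th percentile of the array (y axis) of the 3 Egfr probes on each array, by group. Points are arrays, bars are group means and open points are not well above background. On each probe the neural stem cells have the highest mean and the glioma cells the lowest.

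Erbb2, the partner receptor without a ligand of its own, was read by 1 probe at chr11:98298103-98298162. It read -2.22, -2.49 and -1.89 in tissue, -1.71 and -3.23 in glioma cells, 0.33 and 0.17 in astrocytes, and -0.29 and -0.20 in neural stem cells. All 5 glioma arrays were below all 4 arrays of normal cells, the normal groups were tight, and the 2 glioma groups overlapped. The astrocyte mean was 0.25 ± 0.12 and the neural stem cell mean -0.25 ± 0.06 (SD, n = 2 each).

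Erbb2 was 5.47-fold lower in tissue than in astrocytes (-2.45, SE 0.44, adjusted p = 0.008), and this call held without any single array. It was 6.58-fold lower in glioma cells than in astrocytes (-2.72, SE 0.53, adjusted p = 0.027). That call was kept only without glioma cell array 1 and was lost without any other cell array, with changes between -3.47 and -1.96 and adjusted p up to 0.11. In tissue it was 3.87-fold below neural stem cells (-1.95, SE 0.44, adjusted p = 0.022), which was lost without tissue array 1 or 2 or either neural stem cell array, at adjusted p up to 0.114 and changes between -2.11 and -1.81. It was also lost with no scaling between arrays (-1.45, adjusted p = 0.13). Glioma cells against neural stem cells gave -2.22 (95% interval -3.56 to -0.88, adjusted p = 0.149), and tissue against glioma cells gave 0.27 (95% interval -0.75 to 1.29).

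Erbb3, the neuregulin receptor with the weak kinase, was instead brightest in the glioma groups. Its probe, whose sequence is given above, read -4.91, -4.58 and -2.84 in tissue, -2.36 and -3.90 in glioma cells, -6.78 and -7.82 in astrocytes, and -5.98 and -7.24 in neural stem cells. It was well above background on all 5 glioma arrays and on none of the 4 arrays of normal cells. The glioma groups overlapped each other, as did the normal groups.

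Since astrocytes and neural stem cells were not well above background, the folds of Erbb3 are bounds. Erbb3 was at least 5.48-fold higher in glioma cells than in astrocytes (adjusted p = 0.021), and at least 2.78-fold higher in tissue than in astrocytes (adjusted p = 0.023). Leaving out either astrocyte array or glioma cell array 1 ended the first call (adjusted p up to 0.091), and leaving out either astrocyte array or tissue array 3 ended the second (adjusted p up to 0.129). No range of changes is given, since the dim side is not well above background. Against neural stem cells the bounds were 4.54-fold for glioma cells (adjusted p = 0.119) and 2.30-fold for tissue (adjusted p = 0.061), and neither was called.

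Erbb4, the neuregulin receptor known from interneurons, was read well by 1 of its 2 probes, at chr1:68078805-68078864. That probe read 2.35, 1.92 and 2.81 in tissue, 2.14 and 1.54 in glioma cells, 0.62 and -1.75 in astrocytes, and 3.32 and 1.08 in neural stem cells. Every array of the other groups was above both astrocyte arrays, and the 2 neural stem cell arrays spanned all 5 glioma arrays. The other probe, at chr1:68086686-68086745, was well above background only on tissue array 3 and neural stem cell array 1 and was not tested.

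Erbb4 was 7.59-fold higher in tissue than in astrocytes (2.92, SE 0.83, adjusted p = 0.040). The call was lost without any tissue array, either glioma cell array or astrocyte array 2, with changes between 1.74 and 4.11 and adjusted p up to 0.219. It was also lost with no scaling between arrays (adjusted p = 0.053) and with no filter on dim probes (adjusted p = 0.054). The differences from astrocytes of 2.41 in glioma cells (adjusted p = 0.159) and 2.77 in neural stem cells (adjusted p = 0.129) were not called, with 95% intervals of -0.24 to 5.05 and 0.12 to 5.41.

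**Figure D3:**
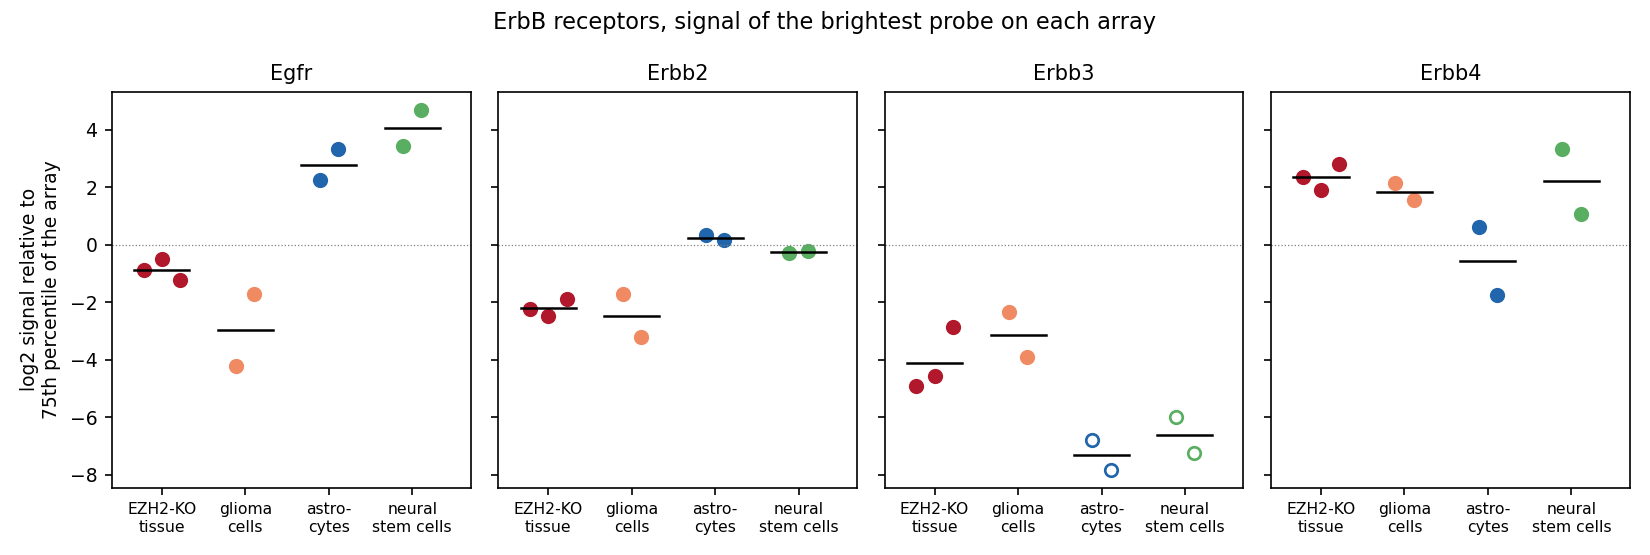
Log2 signal relative to the 75th percentile of the array (y axis) of the brightest probe of each receptor on each array, by group. Points are arrays, bars are group means and open points are not well above background. Egfr and Erbb2 are low on the 5 glioma arrays, Erbb3 is filled only there, and Erbb4 is lowest in astrocytes.

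Among the ligands of Egfr, Hbegf is a heparin-binding ligand that also binds Erbb4. Its probe on chromosome 18 read 2.66, 2.24 and 2.32 in tissue, 2.28 and 1.70 in glioma cells, 3.93 and 4.20 in astrocytes, and 1.22 and 1.05 in neural stem cells. Astrocytes were highest, neural stem cells lowest, and the glioma groups lay between them and overlapped each other.

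Hbegf was 7.63-fold lower in neural stem cells than in astrocytes (-2.93, SE 0.32, adjusted p = 0.0085) and 3.16-fold lower in tissue than in astrocytes (-1.66, SE 0.28, adjusted p = 0.0068), and both calls held without any single array. It was 4.21-fold lower in glioma cells than in astrocytes (-2.08, SE 0.32, adjusted p = 0.015), a call lost without glioma cell array 2 or either astrocyte array, with changes between -2.37 and -1.78 and adjusted p up to 0.075. Tissue was 2.42-fold above neural stem cells (1.27, SE 0.28, adjusted p = 0.021), which was lost without tissue array 1 or 3 or either neural stem cell array, with changes between 1.15 and 1.36 and adjusted p up to 0.114. Glioma cells against neural stem cells gave 0.86 (95% interval 0.04 to 1.67, adjusted p = 0.322), with no overlap of arrays.

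Tgfa, a ligand of Egfr made by many tumours, was dimmest in astrocytes. The probe at chr6:86224838-86224897 read -0.81, -0.67 and -0.07 in tissue, 0.21 and -1.62 in glioma cells, -4.32 and -3.55 in astrocytes, and -1.21 and -3.42 in neural stem cells. Both astrocyte arrays were below every other array, and the glioma cell and neural stem cell arrays overlapped.

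Tgfa was 10.69-fold higher in tissue than in astrocytes (3.42, SE 0.75, adjusted p = 0.017). The call was lost without tissue array 3 or either astrocyte array, with changes between 3.03 and 3.81 and adjusted p up to 0.096. The difference between glioma cells and astrocytes, 3.23 (SE 0.95), missed the call at an adjusted p of 0.070, and that between tissue and neural stem cells, 1.80 (SE 0.75), at 0.136. The second was 2.90 and called without neural stem cell array 1 (adjusted p = 0.045), and 0.70 without neural stem cell array 2 (adjusted p = 0.616).

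Egf, the founding ligand of the family, had no called difference. Its probe at chr3:129380826-129380885 lay between -3.39 and -1.80 over all 9 arrays, and the groups next to each other in their mean overlapped. The widest of its differences was 0.70 in tissue against neural stem cells (95% interval -0.35 to 1.74). Btc, another ligand of Egfr and Erbb4, lay between -7.90 and -5.65 and never rose well above background, so no difference is given for it.

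Nrg1, the main neuregulin, was like Hbegf brightest in astrocytes. Its probe, whose sequence is given above, read 1.37, 0.63 and 0.50 in tissue, 1.14 and -1.52 in glioma cells, 2.89 and 4.03 in astrocytes, and 0.75 and -0.15 in neural stem cells. Both astrocyte arrays were above all others, and the other groups overlapped. Glioma cell array 2 was the lowest of all.

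Nrg1 was 6.17-fold lower in tissue than in astrocytes (-2.63, SE 0.77, adjusted p = 0.045). This call was lost without any array of the tissue, the astrocytes or the neural stem cells, with changes between -3.19 and -2.06 and adjusted p up to 0.215. It was also lost with no scaling between arrays (adjusted p = 0.073) and with no filter on dim probes (adjusted p = 0.060). Against astrocytes the changes of -3.65 in glioma cells (SE 0.96, adjusted p = 0.055) and -3.16 in neural stem cells (SE 0.96, adjusted p = 0.084) missed the call. The first was called without glioma cell array 1 (-4.98, adjusted p = 0.024) and was -2.32 without glioma cell array 2 (adjusted p = 0.124), with adjusted p up to 0.193 over the arrays left out. The second was called without either glioma cell array, at an unchanged -3.16 and an adjusted p down to 0.041, and lay between -3.73 and -2.59 with adjusted p up to 0.281 without an astrocyte or neural stem cell array.

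Nrg2, a neuregulin with 2 probes on chromosome 18, was lowest in neural stem cells. The brighter probe read -0.48, -0.86 and -0.42 in tissue, -0.40 and 0.09 in glioma cells, 0.78 and -0.37 in astrocytes, and -1.09 and -1.67 in neural stem cells. The neural stem cells were below every other array, and the order of the other groups was not the same on both probes. Neural stem cells against astrocytes gave -1.59 on the brighter probe (SE 0.49, adjusted p = 0.087), which was not called. The other probe also gave -1.59 and was called when every probe was fitted, at an adjusted p of 0.029, where 16.1% of all probes were called. It was also called in tissue against neural stem cells (1.24, adjusted p = 0.030, where 16.7% of all probes were called), and the brighter probe was not (0.80, adjusted p = 0.211). As neural stem cells were not well above background on the dimmer probe, these folds are at least 2.06 and 1.61. The second bound is below the 2-fold that a call needs. This probe entered the fit only through tissue and astrocytes, where it is brighter, so its calls add no support.

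**Figure D4:**
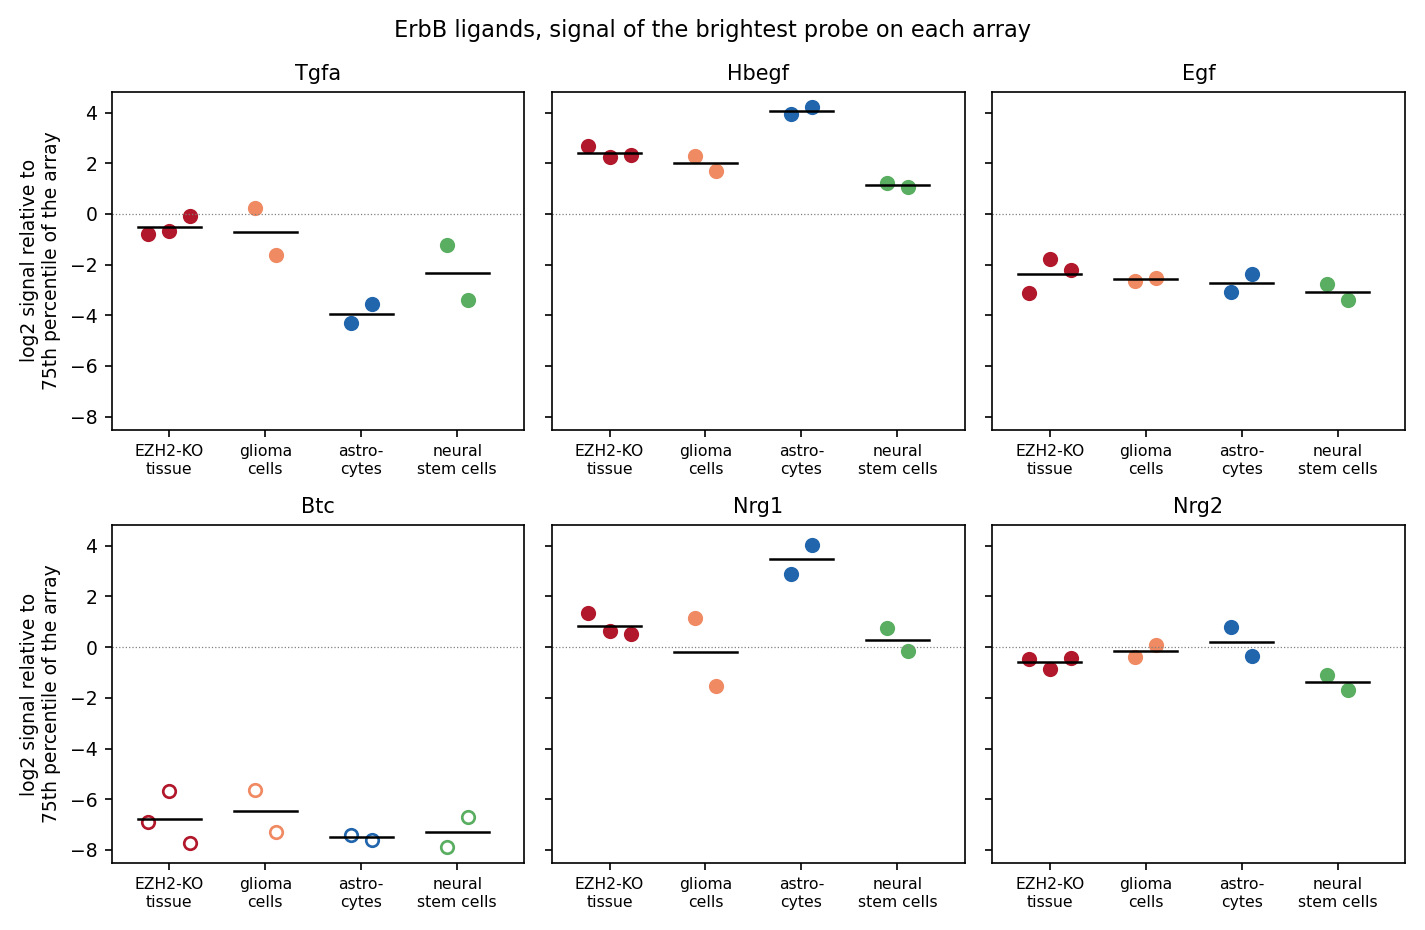
Log2 signal relative to the 75th percentile of the array (y axis) of the brightest probe of each ligand on each array, by group. Points are arrays, bars are group means and open points are not well above background. Hbegf and Nrg1 are highest in astrocytes, Tgfa is lowest there, and all Btc points are open.

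The 5 other ligands of the family were mostly dim. Areg, Ereg and Nrg4 were well above background on 1 or 2 of the 9 arrays at most and were not tested. Ereg stood out on 1 array, reading -0.50 on astrocyte array 2 and between -7.61 and -4.99 on the other arrays. Nrg3, an Erbb4 ligand of neurons, read -2.57, -4.12 and -3.80 in tissue and stayed near background on every cell array, so it entered the tests only through tissue, where it is high. It was higher in tissue by at least 3.58-fold against glioma cells (adjusted p = 0.0025), 3.52-fold against neural stem cells (adjusted p = 0.0054) and 4.24-fold against astrocytes (adjusted p = 0.0016). Epgn, a ligand of Egfr, was 4.54-fold lower in tissue than in glioma cells (-2.18, SE 0.58, adjusted p = 0.039).

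Genes that restrain the receptors were followed as a list of 18, all tested. Lrig1, a membrane protein that speeds receptor breakdown, read 1.38, 3.17 and 0.61 in tissue, -0.06 and 0.63 in glioma cells, 3.60 and 2.60 in astrocytes, and 4.14 and 4.48 in neural stem cells. Both glioma cell arrays were below every array of normal cells. Lrig1 was 7.03-fold lower in glioma cells than in astrocytes (-2.81, adjusted p = 0.017), 16.3-fold lower than in neural stem cells (-4.03, adjusted p = 0.038), and 6.04-fold lower in tissue than in neural stem cells (-2.59, adjusted p = 0.043).

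Of this list 2 genes were called lower and 0 higher in glioma cells against astrocytes, with a median change of -0.18 against 0.15 for all genes, and 1 lower and 0 higher against neural stem cells. These are 11.1% and 5.56% of the list, beside 18.8% and 0.977% of all genes. In tissue against neural stem cells 3 were lower, or 16.7% of the list beside 18.0% of all genes. Among them was Cbl, a ligase that tags active receptors for breakdown (-1.64, adjusted p = 0.014). Lrrk1, a kinase tied to Egfr trafficking, was 60.6-fold lower in glioma cells than in astrocytes (-5.92, adjusted p = 0.023) and 14.0-fold higher in tissue than in glioma cells (3.81, adjusted p = 0.036). The second was the only call of the list in that comparison, or 5.56% beside 16.9% of all genes. Lrrk1 read -3.59 and -0.49 in glioma cells, 4.22 and 3.54 in astrocytes, and -0.97 and 0.42 in neural stem cells. The glioma cell and neural stem cell arrays thus overlapped. In tissue against astrocytes 1 was lower, the ligase Nedd4 (-1.02, adjusted p = 0.038), or 5.56% of the list beside 23.0% of all genes. In neural stem cells against astrocytes 0 were called, beside 14.6%. Errfi1, an inhibitor that binds the Egfr kinase and is induced by its activity, lay between 1.27 and 2.58 over all 9 arrays. In tissue it was 1.99-fold above neural stem cells (0.99, adjusted p = 0.043), short of the 2-fold that a call needs.

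The 12 genes of ligand shedding and release, among them the proteases that cut ligands from the membrane, were all tested. The share called was 8.33% in glioma cells against astrocytes, in neural stem cells against astrocytes and in tissue against glioma cells, and 16.7% in tissue against astrocytes, beside 18.8%, 14.6%, 16.9% and 23.0% of all genes. In glioma cells against astrocytes 1 was lower, Rhbdf1, which guides the protease Adam17 to the surface (-1.85, adjusted p = 0.032), and in tissue against astrocytes Adam10 was lower (-1.12, adjusted p = 0.025). Sdc3, a heparan sulphate carrier of neurons and glia, was higher in tissue than in astrocytes (2.20, adjusted p = 0.0018) and glioma cells (1.24, adjusted p = 0.017), and higher in neural stem cells than in astrocytes (1.26, adjusted p = 0.043). The 2 comparisons with 0 calls in this list were glioma cells and tissue against neural stem cells.

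Adaptors and docking proteins, which link the receptors to Ras and PI3 kinase, numbered 16. In glioma cells against astrocytes 2 of 15 tested were higher, Eps8 (2.57, adjusted p = 0.018) and Sos1 (2.02, adjusted p = 0.016), and 0 lower, or 13.3% called beside 18.8% of all genes. In tissue against astrocytes 2 of 16 were higher and 3 lower, or 31.2% beside 23.0%, among them Shc1, the adaptor next to the receptors (-2.61, adjusted p = 0.010). Shc1 was also lower in neural stem cells than in astrocytes (-2.21, adjusted p = 0.048). Grb7, an adaptor that binds Erbb2 and lies beside it in the genome, was well above background in tissue only, entered the tests only through it, and was higher there by at least 3.52-fold against glioma cells, 3.46-fold against neural stem cells and 4.17-fold against astrocytes (adjusted p = 0.0067, 0.011 and 0.0059). Its calls are part of the shares with tissue and add no support to them. The share of the list was 6.67% in neural stem cells against astrocytes, beside 14.6% of all genes. It was 6.25% in tissue against glioma cells and 12.5% in tissue against neural stem cells, beside 16.9% and 18.0%. In glioma cells against neural stem cells 0 were called, beside 0.977%.

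Of 21 kinases and second messengers, all tested, 0 were called in glioma cells against neural stem cells. In tissue 3 were higher and 1 lower against astrocytes, 2 higher and 1 lower against neural stem cells, and 1 higher and 0 lower against glioma cells. These are 19.05%, 14.3% and 4.76% of the list, beside 23.0%, 18.0% and 16.9% of all genes. Pik3r2, a regulatory subunit of PI3 kinase, was among the higher ones each time (1.29, 1.11 and 1.62, adjusted p = 0.010, 0.021 and 0.0053). Pik3cd, a PI3 kinase subunit best known from leukocytes, was lower in neural stem cells than in astrocytes (-2.83, adjusted p = 0.022) and higher in tissue than in neural stem cells (2.48, adjusted p = 0.0066).

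Output genes of the receptors, those that Ras and MAP kinase signals are known to switch on, numbered 18, all tested. In glioma cells against astrocytes 3 were higher and 1 lower, with a median change of 1.34 against 0.15 for all genes and 22.2% called beside 18.8%. The factors Etv1 (4.84, adjusted p = 0.0075) and Etv4 (3.30, adjusted p = 0.010) were higher and the immediate early gene Fos was lower (-3.39, adjusted p = 0.038). Neural stem cells against astrocytes had 3 higher and 3 lower, or 33.3% beside 14.6% of all genes, with Etv1 (4.76, adjusted p = 0.0099) and Etv4 (2.75, adjusted p = 0.020) again higher and Fos lower (-4.84, adjusted p = 0.019). Against neural stem cells 0 of 18 were called in glioma cells. In tissue 4 were higher and 1 lower against astrocytes, or 27.8% beside 23.0%, led by the feedback inhibitor Spry1 (4.64, adjusted p = 0.016) and Etv1 (4.04, adjusted p = 0.0052). Tissue had 3 higher and 1 lower against neural stem cells, or 22.2% beside 18.0%, and 2 lower against glioma cells, or 11.1% beside 16.9%, Spry4 (-4.08, adjusted p = 0.039) and Myc (-1.69, adjusted p = 0.019).

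Of 8 genes known beside Erbb4 at synapses or in interneurons, all tested, 37.5% were called in each comparison with tissue, beside 16.9% to 23.0% of all genes. The share was 25% in glioma cells and in neural stem cells against astrocytes, beside 18.8% and 14.6%, and 0 against neural stem cells in glioma cells. Gad2, an enzyme that makes the transmitter GABA and is also on the neuron marker list used here, was 57.3-fold higher in tissue than in glioma cells (5.84, adjusted p = 0.00073) and 25.4-fold higher than in neural stem cells (4.67, adjusted p = 0.0016). Grin1, an NMDA receptor subunit, was 20.2-fold higher in tissue than in glioma cells (4.33, adjusted p = 0.0012). In all, 3 of 8 were higher and 0 lower in tissue against glioma cells, with a median change of 2.03 against -0.16 for all genes. Against astrocytes 2 were higher and 1 lower in tissue, and 0 higher and 2 lower in glioma cells.

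**Figure D5:**
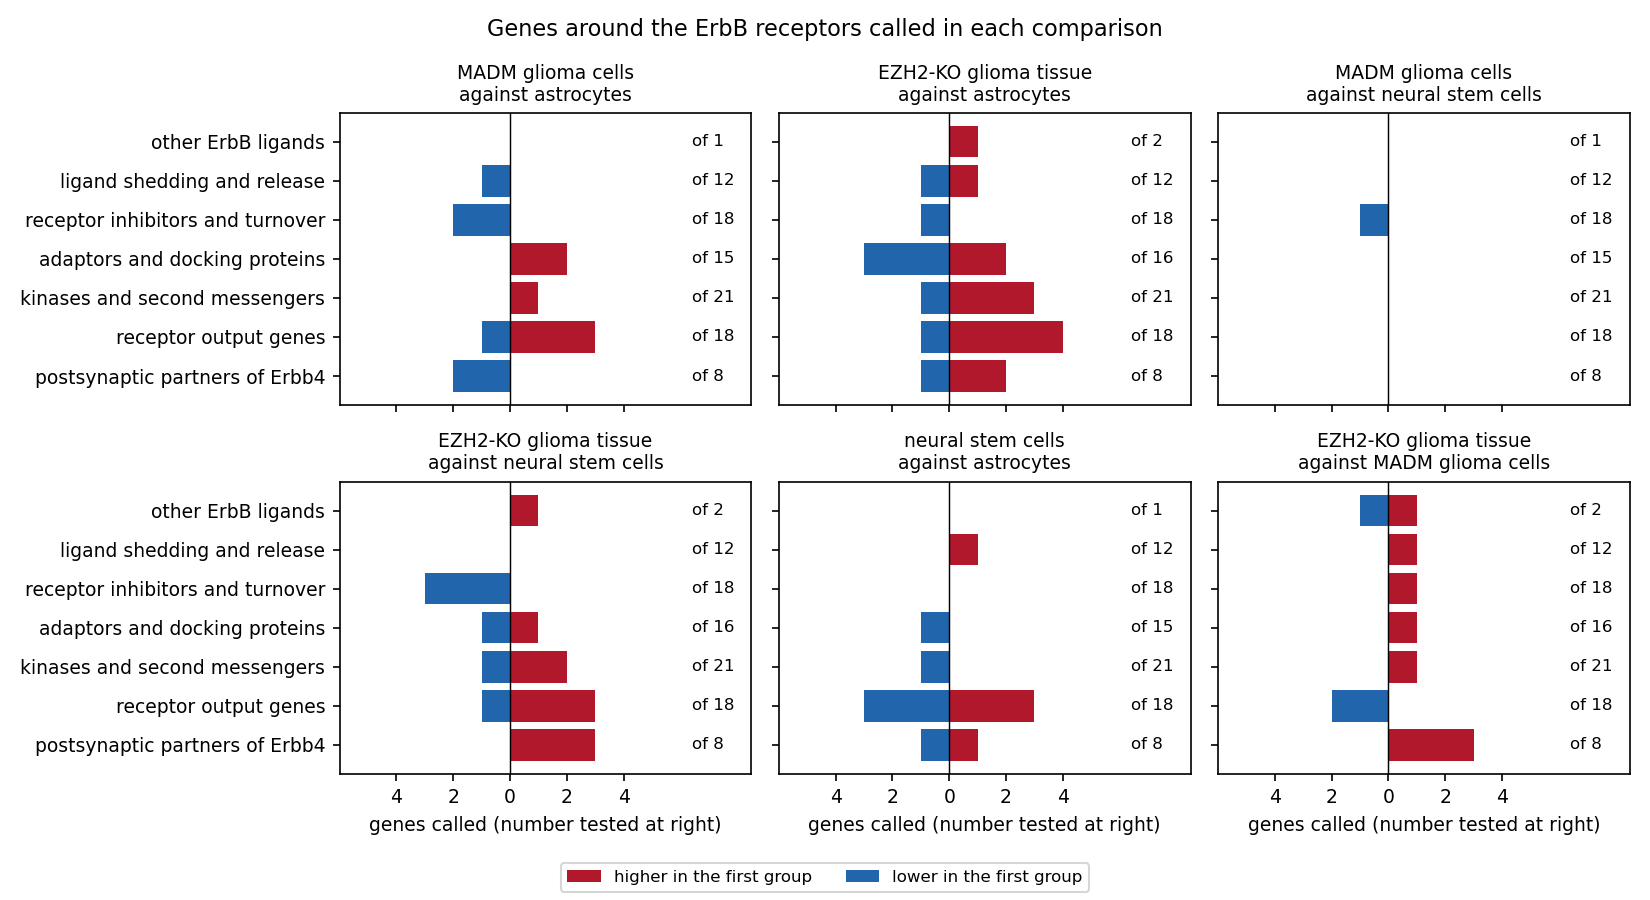
Number of genes of each pathway list called higher (right of 0) or lower (left of 0) in the first group of each comparison (x axis, genes), with the number tested at the right of each panel. The lists differ in size, and in glioma cells against neural stem cells 1 gene of these lists was called.

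Markers of other cell types differed between the groups that the members separate. The 8 microglia and macrophage markers, all well above background in tissue and astrocytes, had a mean log2 signal of 3.66 to 4.63 in tissue and 3.67 to 3.96 in astrocytes, against -4.31 to -3.73 in glioma cells and -2.001 to -0.14 in neural stem cells. Their summed signal, in multiples of the 75th percentile, was 142 to 300.3 in tissue, 171 to 196 in astrocytes, 20.8 to 32.1 in glioma cells and 27.0 to 40.4 in neural stem cells. Of them 3 or 4 were well above background in glioma cells and 7 in neural stem cells. Aif1, Cx3cr1, Ctss and C1qa were not well above background on either glioma cell array, while Csf1r, Tyrobp and Itgam were on both. Itgam did not follow the list: it read 4.97 and 4.29 in glioma cells, 4.60 to 4.89 in tissue and 4.51 and 4.78 in astrocytes. The 8 fibroblast and meninges markers summed to 66.3 and 525 on the astrocyte arrays and to at most 12.04 on any other. By its mean and its sum the fibroblast list was highest in astrocytes, and the microglia list was high in both tissue and astrocytes. On astrocyte array 1 Col1a2 (-0.78), Col3a1 (-1.16), Dcn (-0.79) and Lum (-3.87) were below tissue arrays 1 and 2. Col1a1, Ogn, Acta2 and Pdgfrl were above every array of the other groups there. On astrocyte arrays 1 and 2, with fibroblast sums of 66.3 and 525, Hbegf read 3.93 and 4.20 and Nrg1 2.89 and 4.03. The part of these lists in the results was not tested.

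The 10 oligodendrocyte precursor markers summed to 382 to 564 in tissue, 402 to 601 in glioma cells, 230 to 430 in neural stem cells and 19.6 to 52.1 in astrocytes, with 10 of 10 well above background on every glioma array and 7 of 10 on both astrocyte arrays. Sox10, which defines the lineage, was well above background in every group, and Gpr17, Pcdh15 and Neu4 were not on either astrocyte array. Their mean log2 signal was 4.32 to 4.98 in tissue and 4.13 to 4.68 in glioma cells. It was 2.45 to 3.81 in neural stem cells and -2.31 to -1.62 in astrocytes. By this mean, like Erbb3, the list was higher on every glioma array than on any array of normal cells. By the sums, neural stem cells overlapped both glioma groups, and Olig2 read 4.32 and 4.76 there against 3.20 to 4.90 on the glioma arrays. Erbb4, like the list, was lowest in astrocytes. The 8 neuron markers had a mean log2 signal of 2.40 to 3.56 in tissue and -0.28 to 0.48 in glioma cells. It was 0.06 to 1.05 in neural stem cells and -2.33 to -1.86 in astrocytes. Grin1 was, like this mean, higher in tissue than in glioma cells and astrocytes. Gad2 is itself 1 of these markers, and Nrg3 was well above background in tissue only, so neither is a separate check of the list. The 8 astrocyte markers had means of 3.62 to 5.24 in astrocytes and 0.48 to 3.71 in neural stem cells. The means were 2.67 to 3.66 in tissue and -0.42 to -0.02 in glioma cells. Their sums were 195 to 750 in astrocytes and 121 to 425 in neural stem cells. In tissue they were 206 to 267 and in glioma cells 276 to 357, so glioma cells were lowest by the mean only. S100b was brightest in glioma cells (7.47 and 6.08), and Aldoc read 7.42 and 7.60 there and 6.83 to 7.43 in tissue. Egfr and Lrig1 had their lowest means in glioma cells. The part of these lists in the results was not tested. In whole tissue, fewer cells of a type and less RNA per cell cannot be told apart.

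The genes whose pattern was most like that of each receptor were found by the root mean square difference of log2 signals, each gene centred on its own mean, over the 9 arrays and 15644 named genes. For Egfr they were Ddit4l (1.00), Lratd1 (1.03) and Tead2 (1.07), where Egfr itself varied about its mean by 2.79. For Erbb2 they were Kctd11 (0.382), Yap1 (0.428) and Sfrp1 (0.454), beside its own 1.23. For Erbb3 they were Afap1l1 (0.668), Vil1 (0.680) and Adamts17 (0.688), beside 1.82. For Erbb4 they were Tox3 (0.505), Ppm1e (0.541) and Lrrc4c (0.546), beside 1.41.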

How the data were processed

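Total RNA, 200 ng per sample, was labelled with Cy3 for 9 Agilent 8x60K mouse arrays, per the labels' protocols. The deposited scanner files hold spot intensity on a linear scale, background-subtracted and detrended within each array, per the file headers. The headers name Feature Extraction 10.7.3.1 for tissue and 10.7.1.1 for cells, while the submitters' processing notes name 10.7.3.1. The authors' own deposited log2 table matched these signals with no scaling between arrays (99.2% to 100% of 55666 probes within 0.01, column medians 5.08 to 6.28) and served as an alternative.

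Outlier spots (96 to 164 of 59305 non-control spots) were left out, spots of a probe averaged as log2 values, and each array's 75th percentile (415 to 897 intensity units) subtracted. Members were matched by the files' gene names, other genes through a RefSeq table used for names only (27219 probes by accession, 3578 by symbol, 565 by synonym, 24290 by the file). A probe entered a fit if, in 1 group or more, each array was well above background, and the brightest such probe stood for its gene. limma 3.58.1 (R 4.3.3, two-sided, Benjamini-Hochberg over all genes tested) was fitted to the 6 cell arrays (24868 genes, 3 residual degrees of freedom) and, for tissue, to all 9 (25398 genes, 5 residual degrees of freedom). A fold with a side not well above background is a bound: the brighter mean against, per dim array, the higher of its own signal and the lowest signal well above background. Named pathway genes are from the 2 called ones with the largest change per list, direction and comparison. Errfi1, Ereg and the single markers were chosen after their values were seen. The result of 1 gene is not reported here. The members and lists were chosen with earlier results of these data known. The fits were tested on simulated data. Same-numbered samples did not all deviate together (correlations -0.21 to 0.17), so no replicate block was used. Python 3.11.15, pandas 2.3.3 and matplotlib 3.10.9 were used.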

Additional observations from a re-analysis of the deposited data

How the results depend on the processing

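Of the 15 calls of a member, 3 held without any single array and 12 were lost without at least 1, and 5 tests that were not called became so without some array. Leaving out each array in turn gave 0 to 4 called members for glioma cells against astrocytes, 0 to 1 against neural stem cells, 1 to 2 for neural stem cells against astrocytes, and for tissue 0 to 1 against glioma cells, 0 to 3 against neural stem cells and 2 to 6 against astrocytes. Over all genes the ranges in the same order were 2032 to 4778, 0 to 299, 1235 to 2620, 1977 to 4644, 1644 to 4249 and 3184 to 6048. Glioma cells against neural stem cells had 1 called member, Egfr, with no scaling (the deposited table), normexp background, the mean of probes, each probe fitted, all 9 arrays or a replicate block, where the count as reported was 0. Neural stem cells against astrocytes had 2 with the mean of probes, only the groups compared or a replicate block, and 3 with all 9 arrays. Tissue against glioma cells had 1, Egfr, with no scaling.

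No called member changed direction under an alternative that was run. Among those not called, the sign turned with no scaling for Egf in glioma cells against astrocytes (-0.29) and for Nrg2 in tissue against glioma cells (0.11, and 0.11 with the mean of probes). With a replicate block it turned for Tgfa in tissue against glioma cells (-0.038) and Erbb4 in tissue against neural stem cells (-0.068). The block, for which the labels give no basis and which takes tissue array 3, alone with its number, out of these differences, ended the calls of Hbegf in tissue against neural stem cells (1.32, adjusted p = 0.067) and of Tgfa (3.19, 0.059) and Nrg1 (-2.46, 0.117) in tissue against astrocytes. With single arrays left out, uncalled changes also turned sign. In glioma cells against astrocytes Egf ran from -0.21 to 0.51 and Nrg2 from -0.93 to 0.21. Against neural stem cells Erbb4 ran from -1.48 to 0.76 and Nrg1 from -1.82 to 0.84. In neural stem cells against astrocytes Egf ran from -0.70 to 0.016. In tissue against glioma cells Erbb2 ran from -0.49 to 1.02, Egf from -0.085 to 0.58, Tgfa from -0.73 to 1.103 and Nrg1 from -0.30 to 2.36, against neural stem cells Erbb4 from -0.96 to 1.28, and against astrocytes Egf from -0.0078 to 0.73.

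With no scaling the median of all genes moved from 0.15 to -0.29 in glioma cells against astrocytes, from 0.21 to -0.19 in neural stem cells against astrocytes, from -0.16 to 0.38 in tissue against glioma cells and from -0.22 to 0.29 in tissue against neural stem cells. The share of calls that were higher moved from 47.8% to 30%, 46.2% to 24.1%, 46.2% to 79.6% and 45% to 77.7%. Slide as a block was not run, since no slide holds both tissue and cells, and normexp was not run on the tissue arrays, whose files lack the signals it needs. With 2 or 3 arrays in a group, no sample was tested as an outlier.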
